A study of Mus musculus with 30 samples.

Results

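The 8 genes described here, Hmgcs1, Sqle, Idi1, Fdps, Insig1, Srebf1, Srebf2 and Fasn, make or regulate cholesterol and fatty acids. They were picked by symbol: a row of the count table was a member when its Ensembl identifier carries one of those symbols in the GENCODE mouse annotation. All 8 were found among 55487 gene identifiers and all 8 passed the filter on low counts in both cohorts. The main result was narrow. By the test across all genes, 1 member in 1 of 10 comparisons was called: Insig1 was lower in knockout than in floxed hearts after pressure overload. In that comparison 14.3% of all tested genes were called, and the call of Insig1 was lost in some alternative fits. Fasn varied most of all members, and its highest libraries were those with the most adipocyte marker RNA.

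RNA was sequenced from 30 mouse hearts collected 8 weeks after surgery, and counted per gene. Transverse aortic constriction (TAC) narrows the aorta with a clip, so that the left ventricle pumps against a higher pressure, and sham surgery leaves the aorta open. In the floxed cohort, FF_sham and FF_TAC are mice labelled CPT1a floxed, and KO_sham and KO_TAC are mice labelled cardiac specific CPT1a knockout, with 4 hearts in each group. In the AAV9 cohort all mice were C57Bl/6. PBS_sham and PBS_TAC received saline, with 3 hearts each. AAV_sham and AAV_TAC received AAV9.Cpt1a, with 4 hearts each. The design text writes this viral vector as AAV9.cTNTN.Cpt1a and calls its effect cardiac-specific. The labels give neither a Cre line nor the age or sex of the mice. CPT1A is the enzyme that lets long-chain fatty acids enter the mitochondrion to be burned, and the study asked what its level does in the overloaded heart.

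As background, cells build cholesterol from acetyl-CoA through the mevalonate pathway and build fatty acids from the same acetyl-CoA through malonyl-CoA. Both routes are switched on by SREBP transcription factors, which are made as membrane proteins of the endoplasmic reticulum. When sterols are scarce, the escort protein SCAP carries them to the Golgi, where 2 proteases release the active part. When sterols are plentiful, INSIG proteins hold SCAP back. Heart muscle mainly burns fatty acids, and fat tissue and liver are the classical sites of their synthesis. Malonyl-CoA, the building block of the chain, also inhibits CPT1A, which ties fatty acid synthesis to the gene altered in these mice.

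The libraries held 14839758 to 22070373 counts. The targeted gene, Cpt1a, had a level of 11.34 to 19.97 CPM in KO_TAC and 38.85 to 53.68 CPM in FF_sham (CPM is a count relative to library size, scaled by the TMM method). Its level went against the label in 3 libraries: KO_sham 2, at 46.94 CPM, fell within FF_sham, and FF_TAC 2 and 3, at 20.84 and 16.49 CPM, were below each of the 3 remaining KO_sham libraries. Every direction given below that involves KO_sham or FF_TAC is for libraries as labelled. Cpt1a was at 36.62 to 64.37 CPM in PBS_sham and 54.93 to 87.35 CPM in AAV_sham, and at 39.67 to 59.65 CPM in PBS_TAC and 43.97 to 60.95 CPM in AAV_TAC, so the saline and vector ranges overlapped. In 7 libraries (FF_TAC 2 and 3, KO_sham 2 and all 4 of KO_TAC) summed haemoglobin transcripts were under 100 CPM, against 293.9 to 943.6 CPM in the other 23. The same 7 had the highest levels of early response genes, so KO_TAC differs from its controls in library state as well as in genotype and load. Cardiomyocyte markers were abundant in every library and summed to between 28770 and 49930 CPM. The lowest sum was that of PBS_sham 3, which also had 3145 CPM of smooth muscle and pericyte markers, against 1059 CPM at most elsewhere. Nothing says whether hearts were pooled or how the libraries were prepared in time, so p-values measure only the spread between these samples.

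SREBP proteins bind sterol regulatory elements and E-boxes, and the promoters of the members were searched for both because 2 of the members encode those proteins. RefSeq promoter windows (GRCm38.p6, 250 bases before to 50 after a start) were at hand for 6 of the 8 genes, 8 windows in all, and Sqle and Fdps were not matched. On both strands, the letters TCACCCNA, chosen after the windows had been read, were in 4 of the 8 windows and in 3.75% of 32851 windows of the same length. The longer form TCACNCCAC, which overlaps it, was in 1 of the 8 and in 1.24% of all windows. The E-box CACGTG was in 1 of the 8 and in 7.15% of all. CCAAT boxes were in 7 of the 8 (37.41% of all) and GC boxes (GGGCGG) in 6 (35.66% of all). The stretches below hold the matched letters in capitals. Each is written 5′ to 3′ on the strand of its gene and lies wholly upstream of the RefSeq start. A match describes the letters and shows no binding.
Insig1, E-box starting 101 bases before the start, chr5:28071284-28071343, plus strand: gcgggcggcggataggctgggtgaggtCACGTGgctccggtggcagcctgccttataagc
Hmgcs1, long form starting 137 bases before the start, chr13:119690189-119690248, plus strand: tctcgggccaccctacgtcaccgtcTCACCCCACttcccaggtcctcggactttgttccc
Srebf2, core starting 162 bases before the start, chr15:82147081-82147140, plus strand: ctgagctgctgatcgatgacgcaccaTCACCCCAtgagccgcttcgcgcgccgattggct
Fasn, core starting 128 bases before the start, chr11:120824642-120824701, minus strand: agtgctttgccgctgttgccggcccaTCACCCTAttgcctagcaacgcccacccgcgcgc
Srebf1, the third of its 3 starts, core starting 15 bases before the start, chr11:60210472-60210531, minus strand: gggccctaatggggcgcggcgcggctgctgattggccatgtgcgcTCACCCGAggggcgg

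To compare levels between genes, CPM was divided by the exon length of each gene in kilobases (RPKM). Over the 30 libraries the median level was 7.2 RPKM for Hmgcs1, 6.6 for Insig1, 5.95 for Srebf1, 4.85 for Srebf2 and 2.63 for Fasn. The other 3 enzymes had low counted levels, with medians of 0.673 RPKM for Idi1, 0.438 for Sqle and 0.385 for Fdps. Neighbours at the top of this order were not apart: Hmgcs1 exceeded Insig1 in 21 of 30 libraries, and Insig1 exceeded Srebf1 in 16 of 30. Srebf1 exceeded Srebf2 in 28 of 30, Srebf2 exceeded Fasn in 26, and Fasn exceeded Idi1 in all 30. These 3 low values rested on few reads, with 5 to 92 counts per library for Idi1, 27 to 113 for Sqle and 18 to 50 for Fdps. Their library-to-library differences therefore carry a large counting error.

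**Figure D1:**
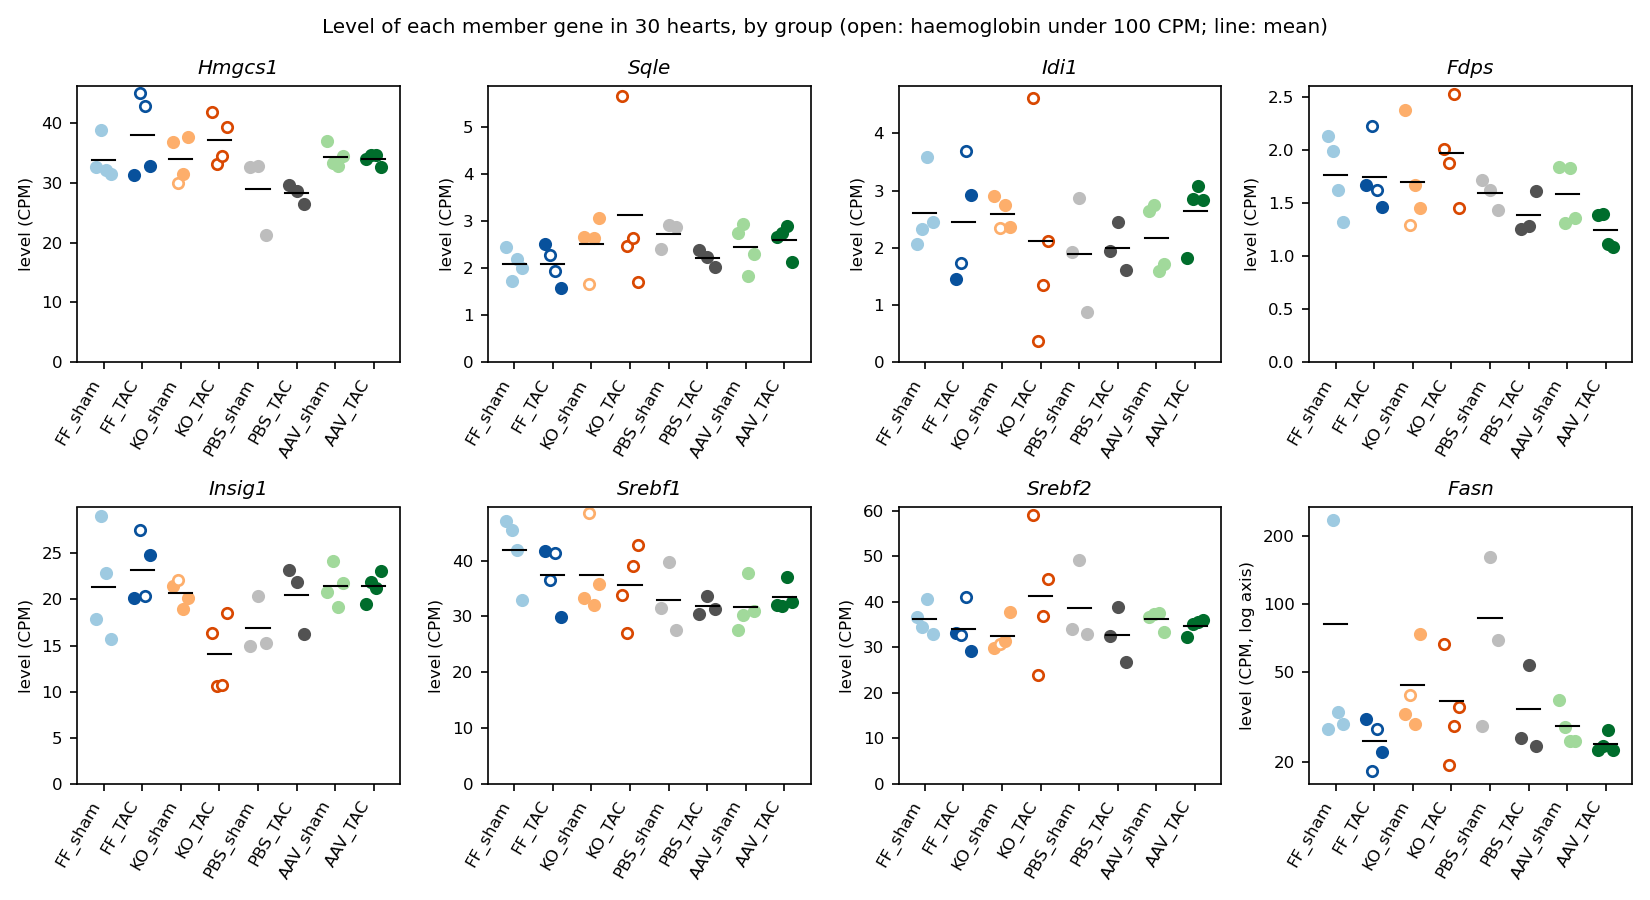
Level of each member (CPM) in every heart, with a line at the group mean; open points are the 7 libraries with haemoglobin under 100 CPM, and the Fasn axis is logarithmic. All 4 KO_TAC points of Insig1 lie below all FF_TAC and KO_sham points, and the top Fasn points are FF_sham 2 (235.5 CPM) and PBS_sham 2 (161.6 CPM).

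Insig1 (ENSMUSG00000045294, chr5:28071363-28078662 in GRCm38, plus strand) encodes the sterol-responsive brake on SREBP release. It is itself a known SREBP target. Its level was 16.31, 10.57, 10.74 and 18.49 CPM in KO_TAC replicates 1 to 4. It was 20.13, 27.52, 20.43 and 24.88 CPM in FF_TAC and 21.43, 22.14, 18.95 and 20.16 CPM in KO_sham. KO_TAC thus lay below both neighbouring groups in every library, with 2 hearts near 11 CPM and 2 above 16 CPM. In FF_sham the level was 17.89, 29.07, 22.84 and 15.7 CPM, a range that overlapped KO_TAC.

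The difference between KO_TAC and FF_TAC was the 1 call among the members: a log2 fold change of −0.72 (SE 0.20, adjusted p 0.0299; quasi-likelihood F test of edgeR, Benjamini-Hochberg over 15575 genes). In that comparison 14.3% of all tested genes were called and 6.81% were called lower, and 13.5% had groups that did not overlap. A count of 1 in 8 members is near that background. The call was lost with a term for the low-haemoglobin libraries (−0.77, SE 0.23, adjusted p 0.0565). It was also lost on leaving out FF_TAC 2, FF_TAC 4, KO_TAC 2 or KO_TAC 3, while the estimate stayed between −0.88 and −0.61 over the 8 such fits. Those 4 fits called 2789, 1123, 1772 and 1213 genes in all, against 2234 with every library. The 3 low-haemoglobin libraries outside KO_TAC had 27.52, 20.43 and 22.14 CPM of Insig1, each above every KO_TAC library. Between the low-haemoglobin libraries of KO_TAC and FF_TAC alone the estimate was −0.79 (SE 0.27, adjusted p 0.421), in a fit of 7 libraries that called 0 genes by edgeR.

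KO_TAC against KO_sham gave an Insig1 log2 fold change of −0.54 (SE 0.20, adjusted p 0.0628), where 25.8% of all genes were called and 23.1% had groups that did not overlap. This estimate passed the threshold without KO_TAC 1 (−0.62, adjusted p 0.0385), without KO_TAC 4 (−0.70, adjusted p 0.0279) and with all 30 libraries in 1 fit (−0.54, adjusted p 0.0283). The fit without KO_TAC 1 called 6431 of 15781 genes, against 4024 of 15575 with every library. The fit without KO_TAC 4 called 3897 of 15894, and the fit of all 30 libraries called 4421 of 16561. Over the fits that left out 1 library the Insig1 estimate ran from −0.70 to −0.43. With the low-haemoglobin term, where 275 genes were called in all, Insig1 was not called in KO_TAC against KO_sham. The estimate was 0.12 (SE 0.20, adjusted p 0.825) for FF_TAC against FF_sham and −0.06 (SE 0.20, adjusted p 1) for KO_sham against FF_sham. Whether the overload response of Insig1 differed between genotypes was tested as an interaction, which gave −0.65 (SE 0.29, p 0.0367, adjusted p 0.348) by edgeR's quasi-likelihood test, where 0.0449% of genes were called. In the AAV9 cohort, hearts with the vector had 19.46 to 23.09 CPM of Insig1 after TAC and 19.17 to 24.21 CPM after sham, and saline hearts had 16.26 to 23.24 CPM after TAC and 14.91 to 20.41 CPM after sham. These ranges overlapped one another and no Insig1 comparison there was called.

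Markers of other cell types also differed between KO_TAC and FF_TAC, and not evenly within a list. Of 4 endothelial markers, Kdr (the main VEGF receptor), Cdh5 and Tie1 were below FF_TAC in KO_TAC (−1.35, −0.69 and −0.50 on the log2 scale), while Pecam1 was not called (−0.03), and their list summed to 370.2 to 653.1 CPM in KO_TAC against 547.2 to 837.5 CPM in FF_TAC. Of 4 fibroblast markers, Col1a1 and Dcn were higher (1.03 and 0.86), and of 4 macrophage markers, Cd68 and Lyz2 were higher (0.76 and 0.77). Pdgfra, Tcf21, Adgre1 and Csf1r were not called. Pdgfra had 709, 256, 423 and 457 raw counts in KO_TAC and 733, 348, 302 and 540 in FF_TAC. None of the markers on these 3 lists was at 0 in either group. In the same comparison 1 of 4 smooth muscle and pericyte markers and 1 of 5 cardiomyocyte markers were called lower. Of all tested genes 7.54% were called higher and 6.81% lower. In bulk tissue fewer cells of a type and less RNA per cell cannot be told apart, and the part of these differences in that of Insig1 was not tested.

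**Figure D2:**
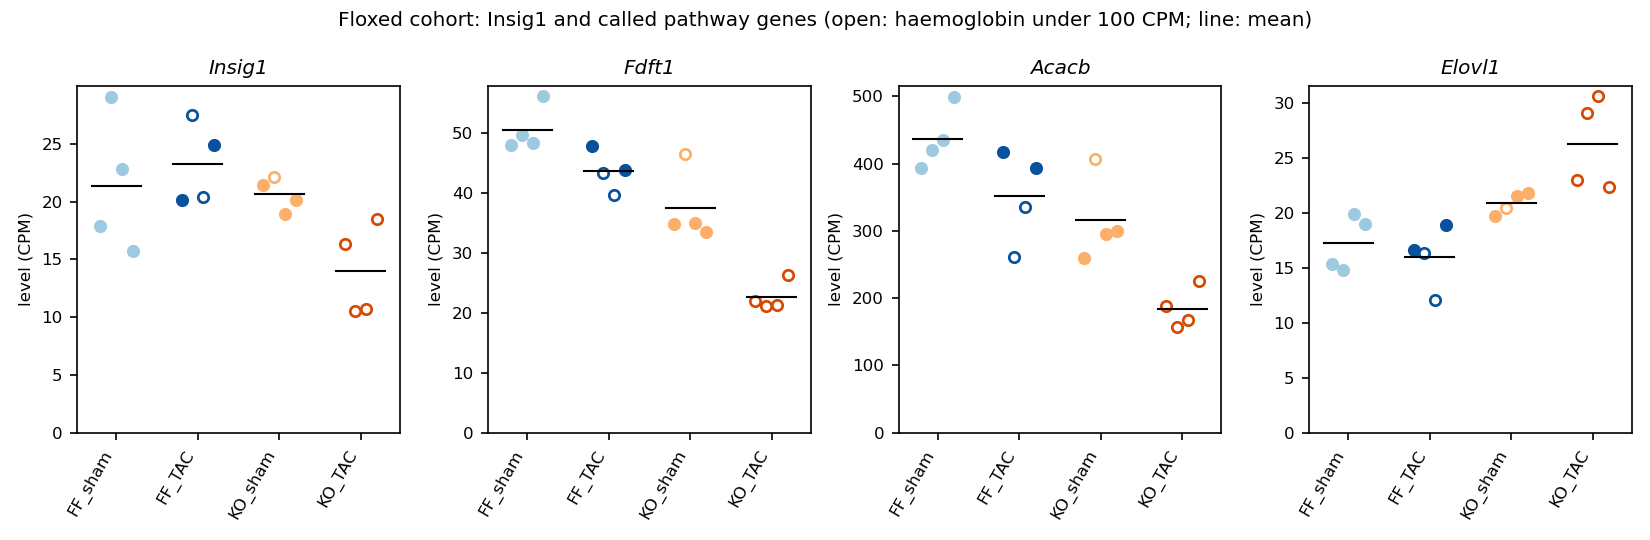
Level (CPM) of Insig1, Fdft1, Acacb and Elovl1 in the 16 floxed-cohort hearts, with a line at the group mean and open points for libraries with haemoglobin under 100 CPM. The KO_TAC points lie below the other groups for Fdft1 (21.14 to 26.2 CPM) and Acacb, and above them for Elovl1.

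Srebf1 (ENSMUSG00000020538, chr11:60199089-60222581, minus strand) encodes SREBP-1, the form tied mainly to fatty acid synthesis. Srebf2 (ENSMUSG00000022463, chr15:82147181-82205379, plus strand) encodes SREBP-2, the form tied mainly to sterol synthesis. Srebf1 had the narrowest range of all members, 27.07 to 48.48 CPM or 1.79-fold over the 30 hearts, and its group means ran from 31.6 CPM in AAV_sham to 41.9 CPM in FF_sham. Its estimates in the 10 comparisons ran from −0.17 to 0.14 on the log2 scale, none larger than its SE at 2 decimals. Exons of Rai1 on the opposite strand overlap 109 bases of Srebf1, and since it is not stated whether counting used the strand, the Srebf1 values are uncertain by that share.

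Srebf2 was at 59.01, 23.99, 36.89 and 44.93 CPM in KO_TAC, which holds both its highest and its lowest value of all 30 hearts. KO_sham had 29.79, 30.66, 31.39 and 37.83 CPM. The groups overlapped, and the log2 fold change of 0.37 (SE 0.20, adjusted p 0.169) was not called. KO_TAC 2, the low library, had the lowest level of Srebf1, Insig1 and Idi1 as well. Without it the Srebf2 estimate was 0.55 (SE 0.15) and passed the threshold (edgeR adjusted p 0.0268). That fit called 2652 of 15850 genes, and with every library 25.8% of all genes were called. Over the fits that left out 1 library the Srebf2 estimate ran from 0.14 to 0.55, so the fit without KO_TAC 2 gave the top of that range.

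The sterol branch begins with Hmgcs1 (ENSMUSG00000093930, chr13:119690379-119708260, plus strand), the cytosolic synthase of the early mevalonate pathway. Knockout hearts had 33.21 to 41.85 CPM after TAC and 30.04 to 37.73 CPM after sham, and floxed hearts had 31.34 to 45.08 CPM after TAC and 31.59 to 38.82 CPM after sham, so these 4 groups overlapped. In the AAV9 cohort PBS_TAC had 29.73, 28.62 and 26.43 CPM, below the 34.08, 34.62, 34.69 and 32.71 CPM of AAV_TAC. That separation came with a log2 fold change of 0.26 (SE 0.13, adjusted p 1), in a comparison where 8.41% of all genes had groups that did not overlap and 0.0382% were called. AAV_sham, at 32.86 to 37.05 CPM, overlapped PBS_sham at 21.37 to 32.92 CPM, where the low value is the library PBS_sham 3. An unnamed gene model, Gm48342, covers part of Hmgcs1 on the opposite strand and held 2 counts at most.

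Idi1 (ENSMUSG00000058258, chr13:8885501-8892451, plus strand) makes the isomerase that activates the 5-carbon isoprene unit. Its level spread over 12.3-fold, from 0.3749 CPM in KO_TAC 2 to 4.617 CPM in KO_TAC 1, both in the same group. Group means ran from 1.89 CPM in PBS_sham to 2.65 CPM in AAV_TAC, and the SE of its fold changes, 0.32 to 0.68, was the widest after that of Fasn. Fdps (ENSMUSG00000059743, chr3:89093588-89101959, minus strand) makes farnesyl pyrophosphate, the branch point to sterols and to protein prenylation. It was at 1.084 to 2.53 CPM, with group means from 1.24 CPM in AAV_TAC to 1.97 CPM in KO_TAC. Both genes have near-identical copies in the genome. Gm3571 matches Fdps over 1062 bases at 98.9% and held 4 to 32 counts per library, against 18 to 50 for Fdps itself, and Gm13502 matches Idi1 over 684 bases at 100%. Gm43738 shares 1124 exonic bases with Fdps on its own strand and held 0 to 4 counts. How reads shared with such copies or overlapping exons were counted is not given in the sources used here. The values of Fdps and Idi1, and their low levels, are therefore uncertain.

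Sqle (ENSMUSG00000022351, chr15:59315077-59331192, plus strand) makes squalene epoxidase, the first oxygen-using and a rate-limiting step of sterol synthesis. KO_TAC had 5.67, 2.474, 2.643 and 1.698 CPM, and FF_TAC had 2.509, 2.288, 1.937 and 1.576 CPM. The groups overlapped, and the estimate of 0.60 (SE 0.31, adjusted p 0.204) was 0.13 without KO_TAC 1. That library also had the highest Idi1 and Srebf2 of all 30 hearts, with 3206 CPM of the atrial light chain Myl7 against 1124 CPM at most elsewhere. The part of atrial tissue in these values was not tested. In the AAV9 cohort Sqle was at 2.413, 2.924 and 2.869 CPM in PBS_sham and 2.392, 2.232 and 2.033 CPM in PBS_TAC. The groups were apart by 0.021 CPM, and 14.7% of all genes were apart in that comparison. The log2 fold change of −0.32 (SE 0.22, adjusted p 0.414) was not called.

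Fasn (ENSMUSG00000025153, chr11:120805846-120824547, minus strand) encodes fatty acid synthase, which builds palmitate from malonyl-CoA. It was at 27.99, 235.5, 33.39 and 29.46 CPM in FF_sham and 31.12, 18.24, 27.87 and 22.23 CPM in FF_TAC. KO_sham had 32.74, 39.42, 29.4 and 74.05 CPM, and KO_TAC had 66.49, 19.49, 28.79 and 34.87 CPM. In FF_sham, KO_sham and KO_TAC 1 heart stood above the rest. PBS_sham had 28.79, 161.6 and 69.5 CPM, and PBS_TAC had 25.46, 53.79 and 23.46 CPM. AAV_sham had 37.55, 28.63, 24.7 and 24.86 CPM, and AAV_TAC had 22.57, 23.47, 27.67 and 22.62 CPM. The vector-treated hearts had at most 37.55 CPM, and every pair of groups compared overlapped.

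The estimates for Fasn were the widest of the members and none was called. The log2 fold change was −1.72 (SE 0.63, adjusted p 0.374) for FF_TAC against FF_sham, where 0% of genes were called, and −0.91 (SE 0.61, adjusted p 1) for KO_sham against FF_sham, where 0% were called. It was −1.35 (SE 0.46, adjusted p 0.19) for PBS_TAC against PBS_sham, where 0.0318% were called, and −1.60 (SE 0.43, adjusted p 0.131) for AAV_sham against PBS_sham, where 0.0127% were called. The last of these passed the threshold by DESeq2 (−1.59, adjusted p 0.0248), with no filter on low counts (adjusted p 0.0386) and without PBS_sham 1 (−2.01, adjusted p 0.00684). The PBS_TAC comparison also passed without PBS_sham 1 (−1.76, adjusted p 0.0194). PBS_sham 1 was the low library of that group. Calls rose across all genes in these fits: without PBS_sham 1, 2828 of 16173 genes were called for AAV_sham against PBS_sham (2 of 15724 with every library) and 1797 of 16173 for PBS_TAC against PBS_sham (5 of 15724). For AAV_sham against PBS_sham DESeq2 called 305 genes and the fit with no filter called 175.

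Adipocyte markers moved with Fasn from heart to heart. The summed level of 7 markers (Adipoq, Plin1, Cidec, Lep, Retn, Cfd and Car3) was 449.8 CPM in FF_sham 2, 741.8 CPM in PBS_sham 2, 483.7 CPM in PBS_sham 3, 99.74 CPM in PBS_TAC 2, 62.05 CPM in KO_sham 4 and 39.52 CPM in KO_TAC 1. These 6 hearts had the 6 highest marker sums and the 6 highest Fasn levels of the 30. The same 6 hearts also held atrial RNA, with 283.4 CPM (PBS_sham 3) to 3206 CPM (KO_TAC 1) of Myl7. Myl7 was at 888.7 CPM in AAV_sham 2 and 610.4 CPM in KO_sham 2, where Fasn was at 28.63 and 39.42 CPM. The part of each tissue in the Fasn levels was not tested. In the 22 hearts with at most 30 CPM of the markers, a limit set after seeing the data, Fasn ran from 18.24 to 39.42 CPM. In the 8 hearts above that limit it ran from 28.79 to 235.5 CPM, so the ranges overlapped. After sham the sum ran from 33.01 to 741.8 CPM with saline, 0 to 31.36 CPM with the vector, 1.247 to 449.8 CPM in floxed and 0.2429 to 62.05 CPM in knockout hearts. After TAC it ran from 0.2851 to 99.74 CPM with saline, 0.1984 to 0.5522 CPM with the vector, 0.1083 to 27.92 CPM in floxed and 0.7628 to 39.52 CPM in knockout hearts. Adipoq, Lep and Retn were at 0 in all AAV_TAC libraries, and Lep was at 0 in FF_TAC and KO_TAC. Ucp1, a marker of brown fat, was at 109.4 CPM in FF_sham 2 and at most 1.548 CPM elsewhere. Cidea and Ppargc1b, the others on the brown fat list, were not high in that heart alone. Cidea had 1315 raw counts in FF_sham 2, and 1058 and 1153 in KO_TAC 2 and 3. Ppargc1b had 316 raw counts in FF_sham 2 and 1508 in PBS_sham 3.

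With the 3 hearts above 200 CPM of adipocyte markers left out (FF_sham 2, PBS_sham 2 and PBS_sham 3), the Fasn log2 fold change was −0.29 (SE 0.37) for FF_TAC against FF_sham and 0.52 (SE 0.37) for KO_sham against FF_sham. It was 0.25 (SE 0.38) for PBS_TAC against PBS_sham and 0.01 (SE 0.36) for AAV_sham against PBS_sham, with PBS_sham then 1 library that is assumed to vary like the other groups. With the log2 marker sum as a covariate in place of leaving hearts out, the same 4 estimates were −0.35 (SE 0.46), 0.23 (SE 0.44), −0.10 (SE 0.44) and −0.24 (SE 0.43). Both settings were added after seeing the data. The interactions of Fasn, 1.51 (SE 0.87) for knockout and 1.08 (SE 0.61) for vector, were 0.07 (SE 0.50) and −0.53 (SE 0.44) without the 3 hearts. Without those hearts no Fasn estimate in the 10 comparisons was larger in size than 0.59. The hearts left out ranked 1, 2 and 4 for Fasn among all libraries, and each was in FF_sham or PBS_sham. Leaving out such high values lowers the Fasn level of those groups by construction. The smaller estimates therefore cannot show what adipocyte RNA contributed, and its part in the Fasn differences was not tested.

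**Figure D3:**
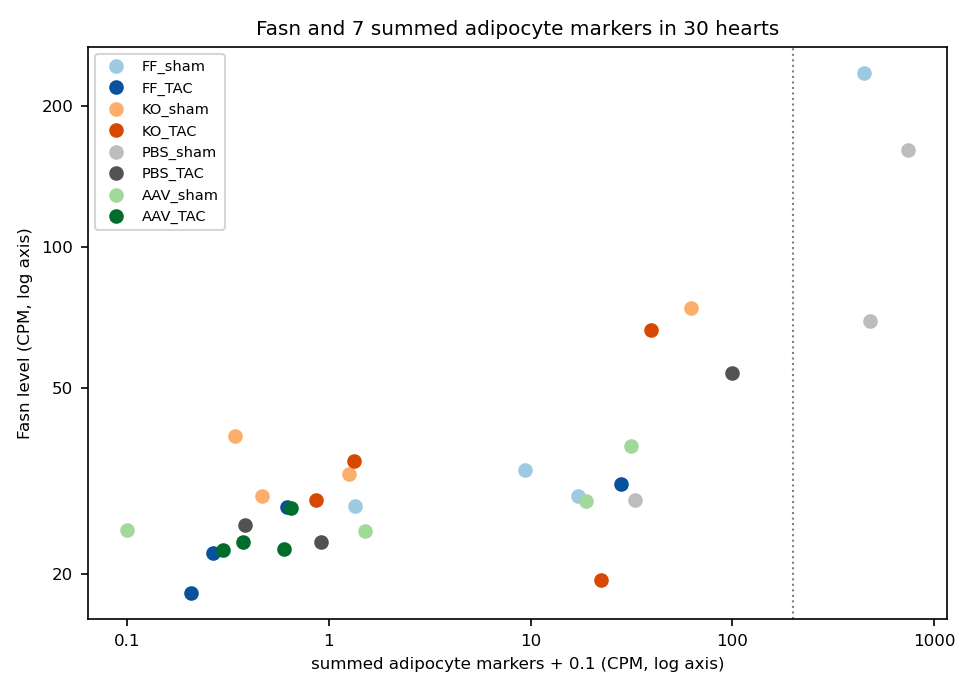
Fasn level against the sum of 7 adipocyte markers (CPM plus 0.1) in each of 30 hearts, both on log axes, coloured by group; the dotted line is at 200 CPM. The 6 hearts with the highest marker sums, 39.52 CPM and above, are the 6 with the highest Fasn.

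The genes most like Fasn in pattern were ranked by Pearson's r of log2 CPM after centring on group means, over the 23 libraries with at least 100 CPM of haemoglobin and the 13763 genes that averaged 1 CPM or more. They were Scd1 (r 0.97), Plxna4 (0.93), Acaca (0.93), Cdo1 (0.93) and Pck1 (0.92). Scd1, which puts the first double bond into stearate, was at 294.1 CPM in FF_sham 2, against 10.24 to 14.14 CPM in the other FF_sham hearts. It was at 141.5 CPM in PBS_sham 2 and 90.38 CPM in PBS_sham 3. Acaca, the acetyl-CoA carboxylase of fat and liver, was at 24.64 CPM in FF_sham 2 against 8.159 to 9.798 CPM in the rest of that group. The closest to Insig1 were Atp6v0e2 (0.86) and Neto2 (0.83), to Hmgcs1 Hcn4 (0.92) and Sec23a (0.90), and to Srebf2 Arhgap1 (0.85). For Idi1 the fourth was Cyp51 (0.76), the lanosterol demethylase of the same pathway, the only gene of the sterol enzyme list among the 5 closest to any single member. Among the members themselves the highest of the 28 pairwise values was 0.66, between Insig1 and Fasn. By ranks (Spearman's rho) that pair had 0.47, and the highest pair was Srebf1 and Srebf2 at 0.59. These values describe 23 libraries that differ in depth and tissue makeup, with adipocyte marker sums from 0 to 741.8 CPM, and carry no test. The part of tissue makeup in them was not tested.

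**Figure D4:**
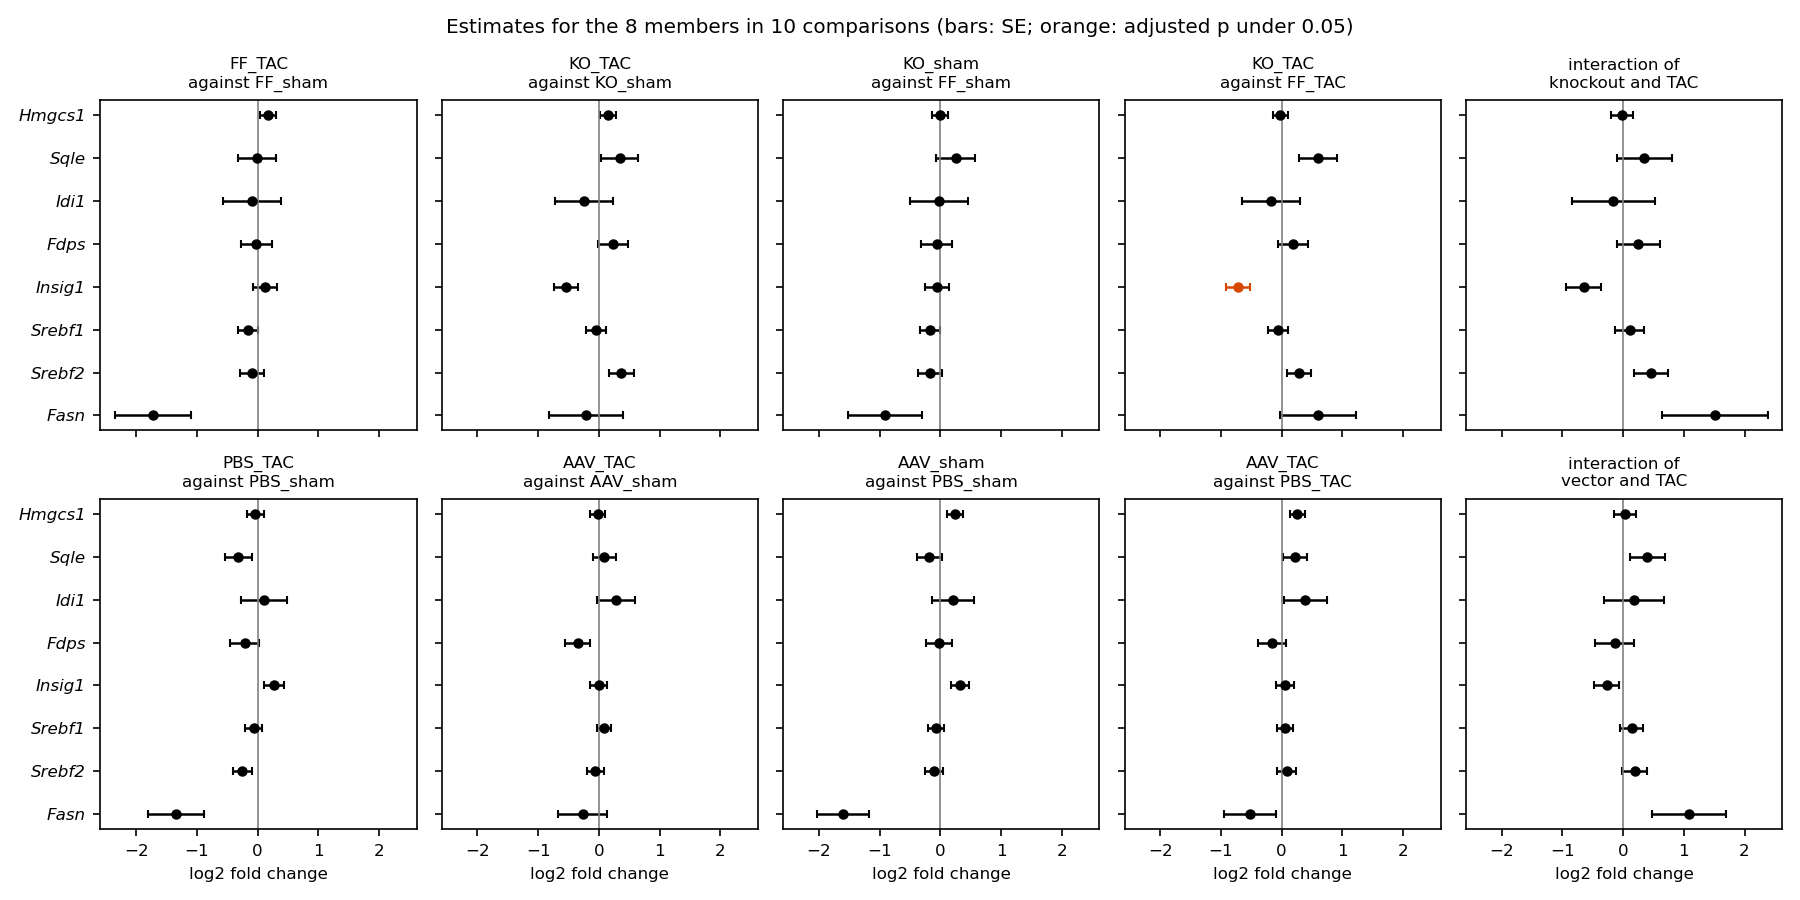
Log2 fold change of each member in the 10 comparisons, with bars of 1 SE; orange marks an adjusted p under 0.05 by edgeR. The only orange point is Insig1 in KO_TAC against FF_TAC (−0.72), and the Fasn points farthest from 0 are −1.72, −1.60 and 1.51.

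The median log2 fold change over all 8 members is given here beside that of all genes tested. It was −0.05 against −0.01 for FF_TAC against FF_sham, 0.05 against 0.02 for KO_TAC against KO_sham, −0.06 against 0 for KO_sham against FF_sham, and 0.08 against 0.04 for KO_TAC against FF_TAC. It was −0.14 against −0.02 for PBS_TAC against PBS_sham, −0.01 against 0 for AAV_TAC against AAV_sham, −0.05 against −0.03 for AAV_sham against PBS_sham, and 0.07 against −0.01 for AAV_TAC against PBS_TAC. The interactions lay farthest from all genes, at 0.18 against 0.03 for knockout and TAC and 0.16 against 0 for vector and TAC. At an unadjusted p under 0.05 by edgeR, 1 of the 8 members passed for FF_TAC against FF_sham (11.1% of all genes did), 1 for KO_TAC against KO_sham (40.6%), 1 for PBS_TAC against PBS_sham (18.5%) and 2 for AAV_sham against PBS_sham (20.7%). For KO_TAC against FF_TAC 1 did (31.1%), as did 1 for the interaction of knockout and TAC (13.1%). None did for KO_sham against FF_sham (5.23%), AAV_TAC against AAV_sham (7.05%), AAV_TAC against PBS_TAC (3.19%) or the interaction of vector and TAC (6.91%). In the last and in AAV_TAC against AAV_sham 0.00636% of all genes were called, and no member. DESeq2 called Insig1 in KO_TAC against FF_TAC and Fasn in AAV_sham against PBS_sham and no other member. It called 2968 genes in all in KO_TAC against FF_TAC and 305 in AAV_sham against PBS_sham. Besides the separations given above, no member had groups apart for FF_TAC against FF_sham (6.04% of all genes did), KO_sham against FF_sham (6.57%), AAV_TAC against AAV_sham (10.6%) or AAV_sham against PBS_sham (10.9%). The estimates for KO_TAC against FF_TAC and against KO_sham share the KO_TAC hearts, and those for PBS_TAC and AAV_sham share the PBS_sham hearts, so neither pair is independent.

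The rest of the pathway was given by 3 lists that do not hold the members. Of 18 other enzymes of the mevalonate and sterol route, 1 was lower and none higher in KO_TAC than in FF_TAC, with a list median of 0.03 (all genes 0.04; 6.81% of all genes were called lower), and 3 were lower than in KO_sham, with a list median of 0 (all genes 0.02; 11.5% of all genes were called lower there). Fdft1, the squalene synthase that commits the pathway to sterols, was at 21.88, 21.14, 21.31 and 26.2 CPM in KO_TAC and 47.84, 43.35, 39.67 and 43.78 CPM in FF_TAC. KO_sham had 34.78, 46.51, 34.94 and 33.41 CPM. The KO_TAC hearts lay below all others of the cohort. The log2 fold change was −0.94 (SE 0.12, adjusted p 0.000488) against FF_TAC and −0.70 (SE 0.12, adjusted p 0.0018) against KO_sham, by edgeR's quasi-likelihood test. With the low-haemoglobin term both calls held (adjusted p 0.00224 and 0.0214). Fdft1 shares 774 exonic bases with Ctsb on the opposite strand, so its level is uncertain if strand was not used in counting. Sc5d and Dhcr7, which act in the last steps toward cholesterol, were lower in KO_TAC than in KO_sham, by −0.48 (SE 0.17) and −0.61 (SE 0.17).

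Of 14 genes of sterol sensing, uptake and export, 13 were tested. Rnf139, a ubiquitin ligase of the endoplasmic reticulum, was lower in KO_TAC than in FF_TAC (−0.45, SE 0.12), and Rnf139 (−0.35, SE 0.12) and Mbtps2, the second protease that frees SREBP, were lower than in KO_sham (−0.41, SE 0.11). None was higher. These are 1 and 2 of 13 genes, where 6.81% and 11.5% of all genes were called lower. The list medians were −0.03 and −0.07 in those comparisons. Rnf139 shares 1140 exonic bases with Tatdn1 on the opposite strand, and Mbtps2 shares 2867 with Yy2 on its own strand, so their counts are uncertain.

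Of 21 other genes of fatty acid synthesis and its control, 20 were tested. In KO_TAC against FF_TAC 5 were lower and 1 was higher (list median 0.09, all genes 0.04), where 6.81% of all genes were called lower and 7.54% higher. Against KO_sham 3 were lower and none higher (list median −0.09), where 11.5% of all genes were called lower. Acacb, the acetyl-CoA carboxylase whose malonyl-CoA acts on CPT1 at the mitochondrion, was at 187.7, 157.2, 168 and 225.3 CPM in KO_TAC and 417.5, 261.8, 336 and 393.3 CPM in FF_TAC. The groups did not overlap, and the log2 fold change was −0.92 (SE 0.17, adjusted p 0.00297) by edgeR's quasi-likelihood test. Mlycd, which breaks malonyl-CoA down again, was lower too (−0.57, SE 0.12), so transcripts of an enzyme that makes malonyl-CoA and of one that removes it were both lower. Mlxipl, the carbohydrate-responsive activator of lipogenic genes, was lower (−0.81, SE 0.19), as was Gpam (−0.80, SE 0.25), the acyltransferase that opens glycerolipid synthesis. The fifth was Lpin1 (−0.41, SE 0.10), the phosphatase that makes diacylglycerol. The 1 higher gene was Elovl1, which elongates very long chains, at 22.98, 29.09, 30.65 and 22.38 CPM in KO_TAC against 16.62, 16.33, 12.12 and 18.91 CPM in FF_TAC (0.73, SE 0.15). Against KO_sham the called genes were Acacb (−0.75), Mlycd (−0.44) and Lpin1 (−0.34).

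With the low-haemoglobin term, 6 of the 8 pathway genes called in KO_TAC against FF_TAC were still called and Gpam and Rnf139 were not. In KO_TAC against KO_sham 1 of 8, Fdft1, was still called. Among all genes that term took the calls from 2234 to 1128 and from 4024 to 275. With the haemoglobin-low libraries of KO_TAC and FF_TAC alone none of the 8 was called, in the fit that called 0 genes in all. On leaving out 1 library, 5 of the 8 calls against FF_TAC held in every fit. Gpam was lost without FF_TAC 1, 3 or 4 or KO_TAC 2 or 3, Rnf139 without FF_TAC 4 or KO_TAC 3, and Lpin1 without KO_TAC 3. Against KO_sham 2 of the 8, Fdft1 and Acacb, held in every such fit. Mlycd was lost without KO_TAC 3, Dhcr7 without KO_TAC 2 or 3, Lpin1 without KO_sham 3 or 4 or KO_TAC 3, and Mbtps2 without KO_sham 1 or KO_TAC 2 or 3. Sc5d was lost in 6 and Rnf139 in 7 of the 8 fits. With no filter on low counts 4 of the 8 calls against KO_sham held, and with all 30 libraries in one fit 4 of 8 against KO_sham and 5 of 8 against FF_TAC held. No estimate of these genes changed sign in any of these settings. No gene of the 3 lists was called in the other 8 comparisons, by edgeR.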

How the data were processed

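The values deposited for the 30 hearts are raw counts of reads per Ensembl gene, made by the authors with HISAT2 2.1.0 and featureCounts of Subread 1.5.1 on GRCm38, per the submitters' processing notes. The libraries were directional per the labels' protocols; the strand setting, the annotation release and the handling of reads with several hits are not given in the sources used here. Symbols were taken from GENCODE mouse release M21 (55141 of 55487 identifiers matched; the others held 0.0192% of counts and were left out). Groups came from the genotype and treatment labels. For KO_TAC the sample titles read TAC Sham; genotype, treatment and column name give knockout and TAC and were followed.

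Each cohort was fitted apart with 1 mean per group in edgeR 4.0.16 (R 4.3.3): TMM normalisation, the filterByExpr filter, the quasi-likelihood F test, and Benjamini-Hochberg adjustment over all 15575 (floxed) or 15724 (AAV9) tested genes in each of 10 comparisons. A gene was called at an adjusted p under 0.05. Percentages beside counts give the share of all tested genes that met the same rule. SE is of the log2 fold change. CPM is scaled by TMM over all 30 libraries, except marker sums, which are relative to the library total. Log2 CPM used a prior count of 2. Within groups, no 2 libraries agreed within sampling noise (chi-square per degree of freedom 6.29 to 234 over 42 pairs).

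The members, gene lists and marker lists were chosen with earlier results of these data known. Named are the members, Cpt1a, pathway genes called (at most 4 with the smallest p per list and comparison; Gpam was added after its values were seen), and the genes closest in pattern to a member. Alternatives were DESeq2 1.42.0, RLE size factors, no filter on low counts, a replicate block, all libraries in one fit, each library left out, a term for libraries under 100 CPM of haemoglobin or fits within that split, and log2 Myl7 as a covariate. The adipocyte settings were added after seeing the data.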

Additional observations from a re-analysis of the deposited data

Results flagged for a closer look

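Of 48 member-by-group sets of 4 hearts, 3 held a heart far from the other 3, where chance flags about 1 in 20. Groups of 3 hearts were not examined. Fasn was at 235.5 CPM in FF_sham 2, against 27.99 to 33.39 CPM in the other FF_sham hearts. Hmgcs1 was at 38.82 CPM in the same heart, against 31.59 to 32.7 CPM. Srebf1 was at 37.09 CPM in AAV_TAC 3, against 31.93 to 32.66 CPM in the other AAV_TAC hearts. FF_sham 2 also had 449.8 CPM of adipocyte markers and 1124 CPM of Myl7, and AAV_TAC 3 had 268.7 CPM of Myl7. The part of other tissue in these values was not tested.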

How the results depend on the processing

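The number of members called changed as follows. KO_TAC against FF_TAC went from 1 to 0 with the haemoglobin term and with the haemoglobin-low libraries alone, and was 0 to 1 over fits that left out 1 library. KO_TAC against KO_sham went from 0 to 1 with all 30 libraries in one fit and with libraries of at most 200 CPM of adipocyte markers, and was 0 to 1 on leaving out 1 library. AAV_sham against PBS_sham went from 0 to 1 with DESeq2 and with no filter on low counts, and was 0 to 1 on leaving out 1 library, as was PBS_TAC against PBS_sham. The cause was not tested. With a replicate block Insig1 in KO_TAC against FF_TAC was −0.70 (edgeR adjusted p 0.0454), and no member call changed. Gpam in the same comparison lost its call with the block and with both adipocyte settings, and Sc5d in KO_TAC against KO_sham with libraries of at most 200 CPM of adipocyte markers. Same-numbered libraries did not deviate together (r from −0.373 to 0.454 in the floxed and −0.409 to 0.397 in the AAV9 cohort), and 2 of 16 and 4 of 14 libraries correlated best with one of their own number.

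Of 80 member estimates 10 turned sign with the adipocyte covariate and 11 with libraries of at most 200 CPM of adipocyte markers, as did 3 of 40 with the Myl7 covariate, 3 of 16 with the haemoglobin-high libraries alone and 64 of 720 over the fits that left out 1 library. All members had such turns, and not all are listed. Fasn was 0.23 with the adipocyte covariate and 0.52 with libraries of at most 200 CPM of adipocyte markers in KO_sham against FF_sham, −0.07 with the covariate in the knockout interaction, 0.22 with the covariate and 0.06 with the Myl7 covariate in AAV_TAC against AAV_sham, and 0.07 with the covariate in AAV_TAC against PBS_TAC. With libraries of at most 200 CPM it was 0.25 in PBS_TAC against PBS_sham, 0.01 in AAV_sham against PBS_sham and −0.53 in the vector interaction. Insig1 was 0.12 with those libraries in KO_sham against FF_sham. On leaving out 1 library, Fasn ran from −1.29 to 0.52 in KO_sham against FF_sham and from −0.64 to 0.16 in KO_TAC against KO_sham. In the latter Idi1 ran from −0.97 to 0.08 and Sqle from −0.13 to 0.54. Insig1 ran from −0.19 to 0.12 in KO_sham against FF_sham and from −0.01 to 0.30 in FF_TAC against FF_sham. DESeq2 gave no adjusted p for Fasn in the floxed cohort. Idi1, Sqle and Fdps, at 5 to 113 counts per library, allow only large differences to be seen.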
